A study of Mus musculus with 10 samples.

Results

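The genes of calcium cycling in heart muscle, Atp2a2, Pln, Ryr2, Casq2, Slc8a1, Cacna1c, Cacnb2, Trdn, Jph2 and Hrc, 10 in all, were followed in mouse ventricles. They were chosen by symbol, taking every probe set of the array annotated to one of these symbols alone. This gave 23 probe sets of the 22626 tested, and 10 of the 12393 genes these stand for. Atp2a2 had 4 probe sets, Pln 3, Ryr2 2, Slc8a1 3, Trdn 6 and the other 5 genes 1 each. All 23 entered the analysis, with no filter on low values. Where 1 value per gene is given, it is that of the brightest probe set of settled level.

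In the heartbeat, calcium enters through the L-type channel, whose pore is encoded by Cacna1c and whose beta subunit is encoded by Cacnb2. This entry opens the ryanodine receptor Ryr2 in the membrane of the sarcoplasmic reticulum, and the stored calcium that flows out lets tropomyosin move on the thin filament and the muscle contract. Relaxation follows when the pump Atp2a2, held back by phospholamban (Pln), returns calcium to the store and the exchanger Slc8a1 carries it out of the cell. Lower pump levels are a well known feature of hypertrophied and failing hearts.

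Total RNA of ventricles was hybridised to 10 Affymetrix arrays from nontransgenic controls (NTG) and from 2 transgenic lines, alpha-TM175 and alpha-TM180, here TM175 and TM180. The series asks what happens early in mild and in severe hypertrophy, and both lines carry an alpha-tropomyosin transgene, a thin filament protein of the sarcomere. From background knowledge TM175 is the mild and TM180 the severe model. There were 3 NTG, 3 TM175 and 4 TM180 arrays. In each genotype the last numbered array (NTG array 3, TM175 array 3, TM180 array 4) carried RNA pooled from 20 hearts and each of the others an individual extract. No treatment was given, and the age, sex, strain and transgene promoter of the mice are not given in the sources used here. Whether a pool includes hearts also measured alone is not stated, so the p-values measure the spread between these arrays.

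The arrays differed in ways other than genotype. Xist, which coats the silenced X chromosome of female cells, stood at 987.6 in TM175 array 1, 414.1 in the TM175 pool and 393.7 in the TM180 pool, against 99.52 to 136.2 in the other individual extracts and 148.8 in the NTG pool. Eif2s3y, from the Y chromosome, was lowest in TM175 array 1 at 7.234, with 44.71 to 60.78 for the remaining individual extracts. Some values without TM175 array 1 are therefore given too. The log2 ratio of the 3′ to the 5′ control probe set of Gapdh, a sign of how intact the labelled RNA was, read 0.08, 0.11 and -0.06 in NTG, 0.29, 0.16 and 0.35 in TM175, and 0.25, 0.12, 0.45 and 0.14 in TM180. Every transgenic array thus stood above every NTG array (two-sided exact permutation test over 120 splits, p = 0.025; each line alone, p = 0.1 and 0.0857). The summed intensity of 8 measured cardiomyocyte markers of 10 ran from 63640 to 69890 in NTG, 60155 to 64002 in TM175 and 59958 to 66357 in TM180, and that of 8 fibroblast markers from 4602 to 6906, 6639 to 10284 and 8410 to 12868. The part of sex, RNA integrity and cell makeup in the results was not tested beyond the values given with them.

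Without a covariate, none of the 23 probe sets passed the test in any comparison (limma, Benjamini-Hochberg adjusted p under 0.05 over all 22626 probe sets). The adjusted p-values ran from 0.167 to 0.973 for TM175, from 0.214 to 0.999 for TM180 and from 0.112 to 0.993 for the mean of both lines. Over all probe sets the same test called 0.00884%, 0.504% and 0.261%, and 0% between the lines. At an unadjusted p under 0.05 there were 5, 6 and 7 of 23, where all probe sets gave 13.0%, 9.34% and 10.8%, and 0 between the lines (13.3%). With the kind of extract, pooled or individual, as a covariate, 1 probe set passed for TM175, 1 for TM180 and 2 for the mean of both lines, against 0.862%, 2.01% and 1.96% of all probe sets, and 0 between the lines (0.0265%). These were Cacnb2 in each comparison with NTG and Cacna1c for the mean of both lines, and all of these calls were of lower intensity. With the Gapdh ratio as a further covariate none of the 23 passed (smallest adjusted p 0.180, 0.0883 and 0.110, and 0.184 between the lines), where 0.0133%, 0.756%, 0.0177% and 0.0265% of all probe sets did. Every transgenic array stood above every NTG array in that ratio. Against NTG this model therefore cannot tell RNA integrity and genotype apart, and no conclusion is drawn from a call lost in it. When arrays were weighted by their quality, 6, 1 and 4 of the 23 passed, and 0 between the lines, where this model called 23.7%, 3.33%, 11.5% and 10.3% of all probe sets.

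By direction, 21 of the 23 probe sets lay below NTG in TM175, where 42.1% of all probe sets did, and 21 in TM180, where 51.5% did. For the mean of both lines it was 20 (43.4%) and for TM180 against TM175 13 (55.4%). Counted by gene, 10 of 10 lay below NTG in TM175 (41.7% of all genes) and 9 of 10 in TM180 (49.1%), Casq2 being the exception. In TM175, Pln, Casq2 and Hrc were close to NTG, at log2 differences of -0.01, -0.02 and -0.03. Of the 3 Slc8a1 probe sets only 1, the brightest, lay below NTG in TM175. For the mean of both lines 9 of 10 lay below NTG (41.6%), and in TM180 against TM175 2 of 10 lay below (53.3%). Direction varied with brightness over the array. Above the median level (11313 probe sets) the median log2 difference was -0.04 in TM175, 0.01 in TM180 and 0.07 for TM180 minus TM175. Over all probe sets it was 0.04, -0.01 and -0.03. All of the 10 genes but Slc8a1 and Cacnb2 read above that level, so the shares of all genes are not matched for brightness. The median log2 difference of the 10 genes was -0.30 in TM175 and -0.21 in TM180, where the medians of all genes were 0.04 and 0.00. Of the 8 measured cardiomyocyte markers, 7 lay below NTG in TM175 and 6 in TM180, with medians of -0.10 and -0.07. Several of the 23 probe sets read the same transcript and both comparisons use the same 3 NTG arrays, so they do not count as separate observations. Without TM175 array 1, 19 of 23 lay below NTG in TM175, and Casq2 turned to 0.02 in log2. In that fit the TM175 log2 differences were -0.39 for Cacna1c, -0.31 for Atp2a2 and -0.22 for Ryr2, and 0 of the 23 passed. In bulk ventricle, fewer cardiomyocytes and less RNA per cardiomyocyte cannot be told apart. In TM175, 5 probe sets had every array below every NTG array (Atp2a2 1427250_at and 1427251_at, Ryr2 1450123_at, Cacna1c and Cacnb2), where 8.11% of all probe sets did. In TM180 there were 6 (Cacna1c, 3 of Atp2a2 and 2 of Pln), where 4.19% did.

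**Figure D1:**
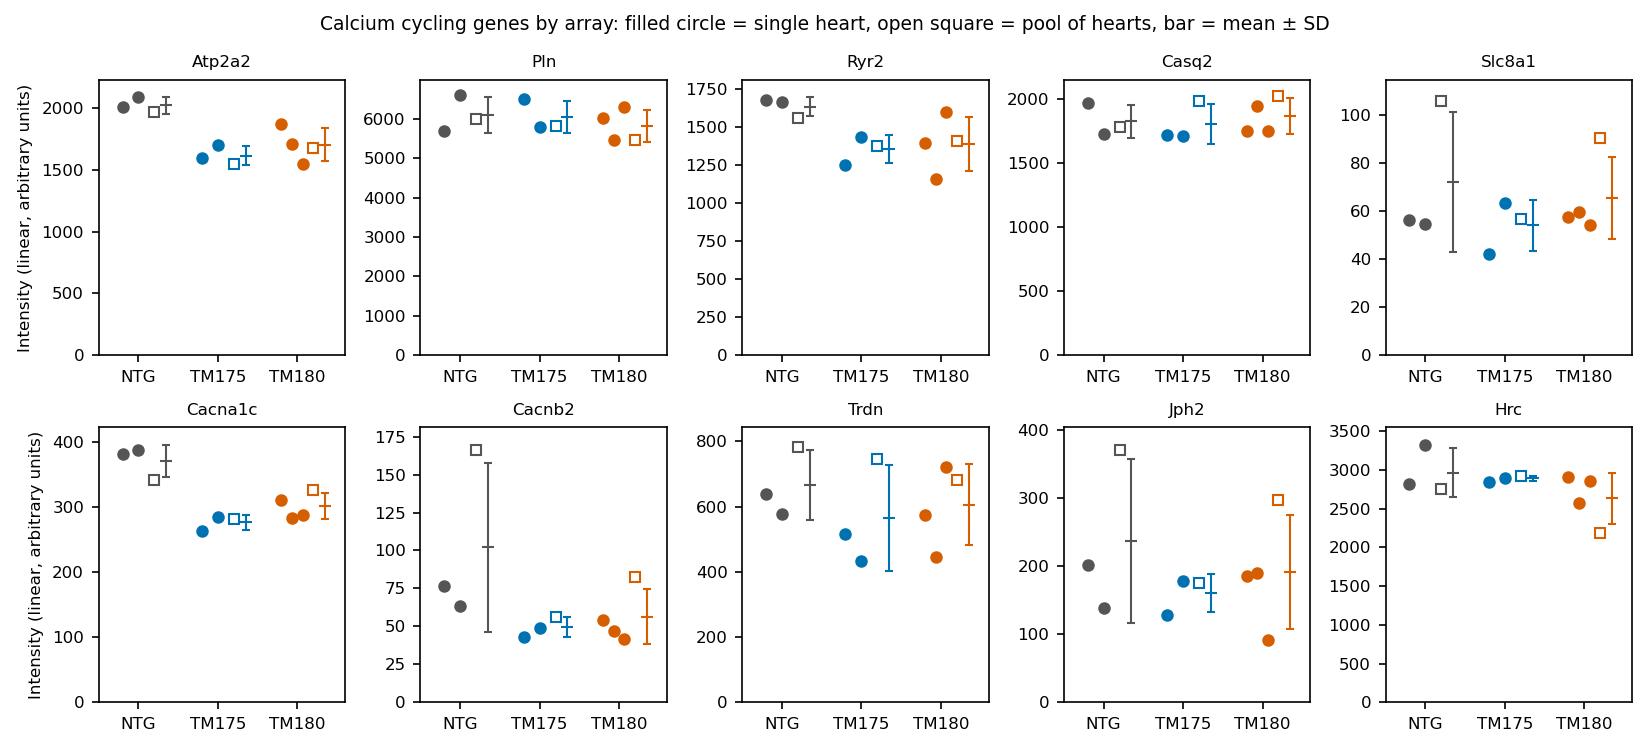
Linear intensity (arbitrary units) of the brightest settled probe set of each of the 10 genes on each array, by genotype; filled circles are individual extracts, open squares pools of 20 hearts, and bars mean ± SD. For Atp2a2 and Cacna1c all 7 transgenic arrays lie below the 3 NTG arrays, and for Cacnb2 the NTG pool stands far above the rest at 166.1.

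Calcium entry was read through the pore and the beta subunit of the L-type channel. Cacna1c, the pore of the L-type channel (probe set 1421297_a_at), read 381.6, 388 and 341.7 in NTG, 263.1, 285.2 and 281 in TM175, and 309.9, 282.5, 287.6 and 326.6 in TM180. All 7 transgenic arrays lay below all 3 NTG arrays, which 2.21% of all probe sets did in this direction. Mean intensity was 370 ± 25.1 (SD, n = 3) in NTG, 276 ± 11.7 (n = 3) in TM175 and 302 ± 20.5 (n = 4) in TM180. The ratio to NTG was 0.747 (95% interval 0.644 to 0.866) in TM175 and 0.814 (0.709 to 0.935) in TM180, with limma adjusted p-values of 0.167 and 0.247. For the mean of both lines the ratio was 0.780 (adjusted p = 0.112, and 0.0487 with extract type in the model). That call was lost in each of the 10 models that left out 1 array with extract type kept (adjusted p of 0.0688 to 0.161). With the Gapdh ratio as a further covariate the log2 difference was -0.36 as before and the adjusted p 0.282.

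Cacnb2, the beta subunit that brings the channel to the membrane (probe set 1452476_at), read 76.67, 63.53 and 166.1 in NTG, 42.96, 49.23 and 56.26 in TM175, and 54.06, 46.87, 42.02 and 82.37 in TM180. The pool was the highest array in each genotype, and 1 TM180 array, its pool, reached into the NTG range. Mean intensity was 102 ± 55.8 in NTG (SD, n = 3), 49.5 ± 6.65 in TM175 (n = 3) and 56.3 ± 18.0 in TM180 (n = 4). The ratio to NTG was 0.528 (95% interval 0.316 to 0.881) in TM175 and 0.584 (0.362 to 0.943) in TM180, with limma adjusted p-values of 0.296 and 0.444. Without the NTG pool the log2 differences of -0.92 and -0.78 were -0.50 (adjusted p = 0.627) and -0.36 (0.857) in this model. With extract type in the model Cacnb2 fell in both, to 0.528 (0.406 to 0.686, adjusted p = 0.0427) in TM175 and to 0.611 (0.478 to 0.781, adjusted p = 0.0473) in TM180. Between individual extracts alone the log2 differences were -0.60 and -0.56, and between the pools -1.56 and -1.01.

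How far the Cacnb2 calls held was followed by leaving out arrays. With extract type kept, 3 of 10 such models called it for TM175, 4 of 10 for TM180 and 7 of 10 for the mean of both lines. Without the NTG pool the log2 differences with extract type were -0.69 (adjusted p = 0.198) and -0.50 (0.267), and without TM175 array 1 they were -0.96 (0.0867) and -0.71 (0.0571). The TM175 call was also lost without TM175 array 3, NTG array 1 or TM180 arrays 1, 2 or 4, and the TM180 call without NTG array 1 or TM180 arrays 2, 3 or 4. Cacnb2 intensity was highest on the array with the lowest Gapdh 3′ to 5′ ratio. With that ratio as a further covariate, a model chosen after seeing the data, the log2 differences were -0.59 and -0.43 and neither passed (adjusted p = 0.258 and 0.360).

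**Figure D2:**
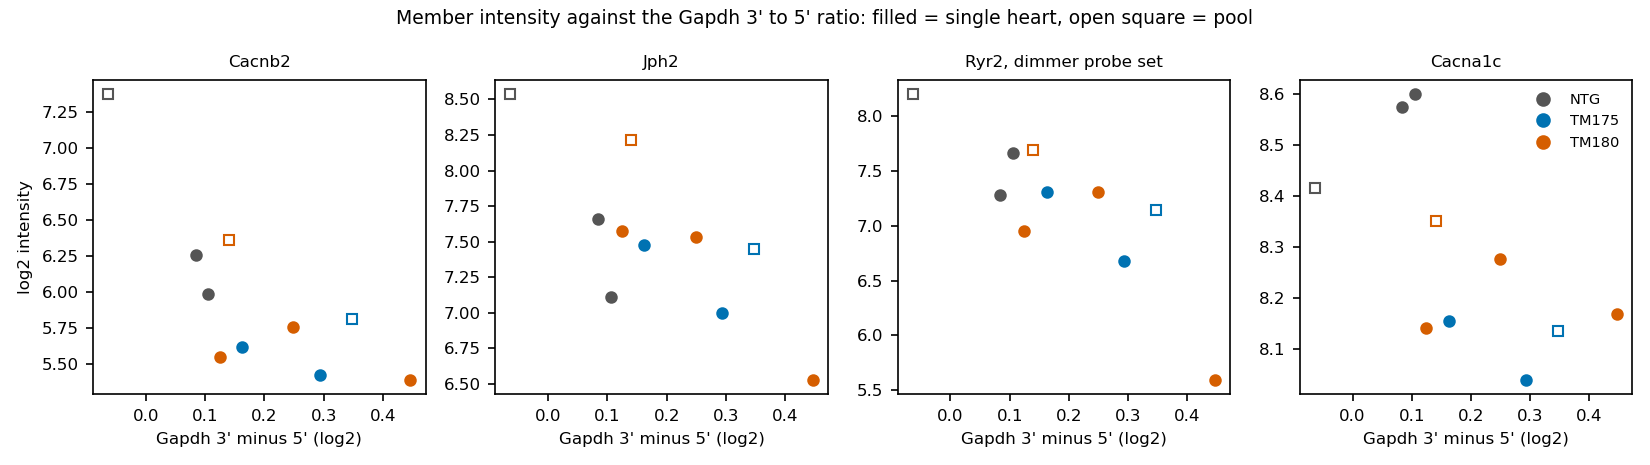
Log2 intensity of Cacnb2, Jph2, the Ryr2 probe set 1421126_at and Cacna1c on each of the 10 arrays against the log2 ratio of the 3′ to the 5′ Gapdh control probe set; filled circles are individual extracts, open squares pools. The NTG pool, at the lowest ratio of -0.06, has the highest Cacnb2, Jph2 and Ryr2 1421126_at values, and TM180 array 3, at the highest ratio of 0.45, has the lowest.

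The promoter windows of Cacnb2 are shown because this gene had the largest log2 difference from NTG of the 10 in each line, by 1 value per gene. They come from RefSeq, build GRCm38.p6, and run from 250 bases before to 50 bases after an annotated start. Capitals mark matches on either strand to GGGCGG (the GC box) or CANNTG (the E box). The M-CAT element (CATTCC) was searched too and had no match in these windows. The same held for a binding sequence of GATA factors (AGATAA).
Cacnb2 at chr2:14604056-14604355, plus strand: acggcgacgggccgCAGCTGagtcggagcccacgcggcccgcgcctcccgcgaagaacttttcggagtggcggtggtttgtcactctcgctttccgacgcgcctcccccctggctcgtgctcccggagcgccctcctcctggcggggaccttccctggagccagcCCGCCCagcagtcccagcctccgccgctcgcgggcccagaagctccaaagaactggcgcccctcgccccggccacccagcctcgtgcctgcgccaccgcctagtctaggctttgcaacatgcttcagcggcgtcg
Cacnb2 at chr2:14823842-14824141, plus strand: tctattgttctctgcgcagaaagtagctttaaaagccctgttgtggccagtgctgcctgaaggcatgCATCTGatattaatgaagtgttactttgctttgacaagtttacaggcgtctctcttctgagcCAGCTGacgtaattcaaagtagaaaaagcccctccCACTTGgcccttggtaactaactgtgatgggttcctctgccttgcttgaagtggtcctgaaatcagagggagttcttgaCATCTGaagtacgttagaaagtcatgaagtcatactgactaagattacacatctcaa
The first window holds 1 GC box and 1 E box, with 71.7% G and C, and the second holds 4 E boxes, with 44.0%. RefSeq windows were matched for 8 of the 10 genes, all but Atp2a2 and Trdn, 12 in all. The 2 windows of Jph2 overlap for most of their length, so a match there can be counted in both. Of the 12 windows, 6 held a GC box, 0 an M-CAT, 2 a GATA site and 12 an E box, where 35.7%, 14.7%, 11.2% and 72.3% of the 32851 windows in the table did. These are letter matches, not sites shown to be bound.

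Calcium release was read through Ryr2 and the proteins that sit with it. Ryr2, the release channel (probe set 1450123_at), read 1674, 1663 and 1561 in NTG, 1251, 1432 and 1373 in TM175, and 1396, 1160, 1595 and 1408 in TM180. The 3 TM175 arrays lay below NTG, and 1 TM180 array overlapped. Its ratio to NTG was 0.827 (95% interval 0.689 to 0.993) in TM175 and 0.846 (0.713 to 1.00) in TM180, with limma adjusted p-values of 0.370 and 0.546. With the Gapdh ratio and extract type in the model its log2 differences went from -0.27 and -0.24 to -0.44 and -0.38, and neither passed (adjusted p = 0.266 and 0.264). The other Ryr2 probe set, 1421126_at, spread from 48.33 to 293.6 over the 10 arrays. Its log2 differences of -0.67 and -0.83 moved the other way, to 0.22 and -0.01, in that model, and none passed.

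Casq2, the cardiac calsequestrin that binds calcium inside the store (probe set 1422529_s_at), read 1968, 1725 and 1780 in NTG, 1717, 1710 and 1987 in TM175, and 1747, 1946, 1754 and 2027 in TM180. The 3 groups overlapped throughout. Its ratio to NTG was 0.988 (95% interval 0.841 to 1.16) in TM175 and 1.02 (0.880 to 1.19) in TM180.

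Hrc, a calcium-binding protein of the store lumen (probe set 1419109_at), read 2811, 3322 and 2751 in NTG, 2847, 2899 and 2917 in TM175, and 2908, 2567, 2855 and 2188 in TM180. The groups overlapped, and the TM180 pool was the lowest array. The ratio to NTG was 0.979 (95% interval 0.8096 to 1.183) in TM175 and 0.886 (0.7417 to 1.057) in TM180.

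Jph2, the junctophilin that holds the reticulum close to the cell membrane (probe set 1421453_at), read 202.1, 138.5 and 371.2 in NTG, 127.9, 178 and 174.8 in TM175, and 185.4, 190.7, 92.34 and 297.2 in TM180. The NTG and TM180 pools were the highest arrays of all, and the individual extracts of the 3 genotypes overlapped. The ratio to NTG was 0.726 in TM175 and 0.809 in TM180, with 95% intervals of 0.386 to 1.37 and 0.448 to 1.46. The log2 differences of -0.46 and -0.31 became 0.32 and 0.42 with the Gapdh ratio and extract type in the model, and neither model called them.

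Trdn, triadin, which links calsequestrin to the release channel, had 6 probe sets, and all 6 lay below NTG in both lines, with ratios of 0.734 to 0.965 in TM175 and 0.757 to 0.947 in TM180. None passed (smallest limma adjusted p 0.598 and 0.857, and 0.145 and 0.334 with extract type). The brightest, 1451801_at, read 639.2, 576 and 783.8 in NTG, 514.7, 432.1 and 746.1 in TM175, and 575.7, 446.2, 721.3 and 681.6 in TM180. The groups overlapped. With the Gapdh ratio and extract type in the model its log2 differences were -0.67 and -0.46 (adjusted p = 0.180 and 0.124), larger than the -0.27 and -0.15 without a covariate.

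Triadin read higher in the pools than in the individual extracts. In a limma comparison of the 3 pools with the 7 individual extracts, with genotype in the model and added after values were seen, 9 of the 23 probe sets passed, all higher in pools, where 10.0% of all probe sets were called higher and 22.2% in either direction. They were all 6 of Trdn, 1.34- to 1.79-fold higher in pools, Cacnb2 at 1.72-fold (adjusted p = 0.00403), Jph2 at 1.74-fold (0.0334) and Slc8a1 1425817_a_at at 1.496-fold (0.0153). For 1426134_at of Trdn the pools read 140.5 to 169 and the individual extracts 70.22 to 127.3, with no overlap. In 3 of the 23 probe sets, all of Trdn, every pool lay above every individual extract, where 7.09% of all probe sets did. Pump, phospholamban, Cacna1c, Casq2, Hrc and both Ryr2 probe sets did not pass this comparison. The TM175 and TM180 pools also had the high Xist values given above, and the part of this in the comparison was not tested.

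**Figure D3:**
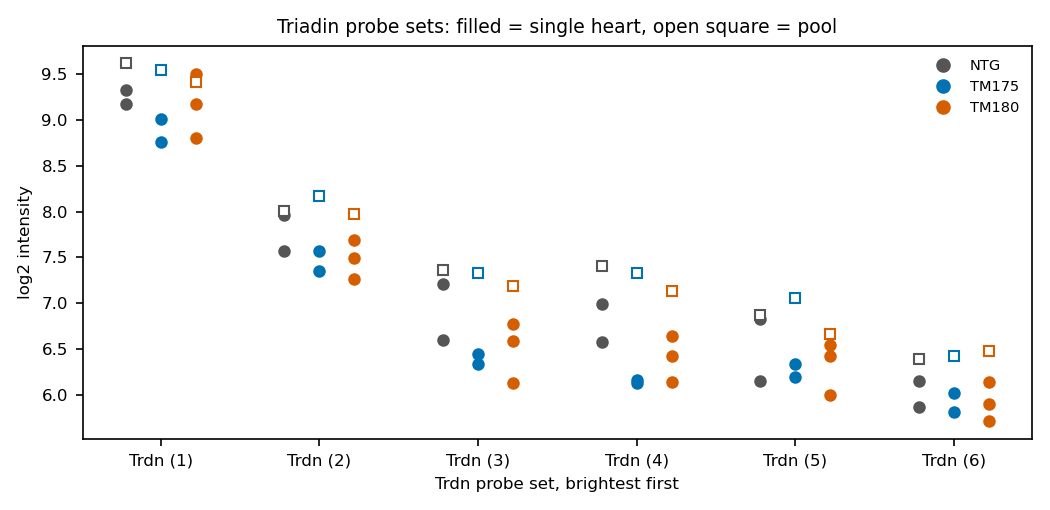
Log2 intensity of the 6 Trdn probe sets, brightest first, on each array, with genotypes side by side; filled circles are individual extracts, open squares pools of 20 hearts. In 5 of the 6 probe sets the pool is the highest array of each genotype, and in the brightest it is so in 2 of the 3 genotypes.

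Calcium return was read through the pump, its inhibitor and the exchanger. Atp2a2, the pump SERCA2 (probe set 1427250_at), read 2005, 2093 and 1964 in NTG, 1592, 1704 and 1551 in TM175, and 1872, 1709, 1549 and 1676 in TM180. All 7 transgenic arrays lay below all NTG arrays, which 2.21% of all probe sets did. Mean intensity was 2021 ± 65.9 (SD, n = 3), 1616 ± 79.2 (n = 3) and 1702 ± 133 (n = 4). The ratio to NTG was 0.799 (95% interval 0.690 to 0.925) in TM175 and 0.840 (0.733 to 0.964) in TM180. Neither passed, with limma adjusted p-values of 0.223 and 0.352, and 0.0990 and 0.188 with extract type.

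Its second settled probe set, 1427251_at, read 413.8, 423.5 and 540 in NTG, 368.6, 352.1 and 352.8 in TM175, and 391.3, 322.9, 332.8 and 347.9 in TM180, again with no overlap. Ratios were 0.785 and 0.763 (limma adjusted p = 0.280 and 0.214). The remaining 2 Atp2a2 probe sets have no settled level. As written, 1416551_at ran from 7.748 to 9.874 and 1452363_a_at from 5.953 to 8.306, and if the point is a mark before the last 3 digits the ranges are 7748 to 9874 and 5953 to 8306. The reading does not alter ratios between arrays, which were 0.991 and 0.951 for the first, in TM175 and TM180, and 0.896 and 0.881 for the second. Thus the 4 probe sets lay on the same side of NTG, with ratios from 0.763 to 0.991, and none passed. Read as 7748 to 9874 and 5953 to 8306, the unsettled 2 would be brighter than the probe set taken for Atp2a2 (1549 to 2093). Their ratios were higher than those of the settled 2. The arrays of 1416551_at overlapped NTG in both lines, and those of 1452363_a_at in TM175 but not in TM180. The size of the pump difference therefore depends on the probe set taken.

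Pln, the inhibitor of the pump (probe set 1460332_at), read 5695, 6593 and 5995 in NTG, 6512, 5799 and 5812 in TM175, and 6025, 5467, 6302 and 5470 in TM180. The groups overlapped, with ratios to NTG of 0.992 (95% interval 0.848 to 1.16) and 0.954 (0.824 to 1.10). A second probe set, 1423359_at, read 4742, 5266 and 5249 in NTG, 4978, 4808 and 3835 in TM175, and 4577, 4086, 4036 and 4027 in TM180. Here all TM180 arrays lay below NTG, at a ratio of 0.822 (95% interval 0.696 to 0.971, limma adjusted p = 0.407). The third, 1450952_at, has no settled level (6.161 to 7.701 as written, or 6161 to 7701) and its TM180 ratio was 0.856 (0.756 to 0.969, adjusted p = 0.358), again without overlap. Read as 6161 to 7701, it would be the brightest Pln probe set. All 3 Pln probe sets thus lay below NTG in TM180, with intervals that overlap one another, and none passed.

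Within each array the log2 ratio of pump to inhibitor, 1427250_at to 1460332_at, was taken as the balance of the pair, of which only differences between arrays carry meaning. It read -1.51, -1.66 and -1.61 in NTG, -2.03, -1.77 and -1.91 in TM175, and -1.69, -1.68, -2.02 and -1.71 in TM180. All 7 transgenic arrays lay below all 3 NTG arrays, by 0.02 at the closest. The mean difference from NTG was -0.31 in TM175 (two-sided exact permutation test, p = 0.1, the smallest possible) and -0.18 in TM180 (p = 0.0857). Over both lines it was -0.24 (exact permutation p = 0.025), and after Benjamini-Hochberg adjustment over the 8 ratio tests none passed (0.2 for this one). The separation depends on the probe sets taken, and pairings with the probe sets of unsettled level were not computed. With Pln 1423359_at in place of 1460332_at, a choice made after seeing the data, the ratio ran from -1.42 to -1.24 in NTG, -1.64 to -1.31 in TM175 and -1.38 to -1.26 in TM180, so that both lines overlapped NTG. The differences were then -0.15 in TM175, 0.03 in TM180 and -0.05 over both lines (exact permutation p = 0.3, 0.571 and 0.667). With the other pump probe set, 1427251_at, they were -0.34, -0.32 and -0.33 against Pln 1460332_at and -0.18, -0.11 and -0.14 against 1423359_at, and 1 of these 4 line comparisons with NTG, TM175 against 1460332_at, was without overlap.

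Slc8a1, the sodium-calcium exchanger of the cell membrane, had 3 probe sets. The brightest, 1425817_a_at, read 56.04, 54.57 and 105.8 in NTG, 42.25, 63.16 and 56.5 in TM175, and 57.48, 59.65, 53.95 and 90.47 in TM180. The groups overlapped, and the NTG and TM180 pools were the highest arrays. Ratios to NTG were 0.775 (95% interval 0.5097 to 1.179) and 0.932 (0.629 to 1.38). The other probe sets, 1420210_at and 1440201_at, ran from 44.17 to 64.78 and from 31.65 to 43.48, with ratios of 1.14 and 1.04 in TM175 and 0.986 and 1.07 in TM180. The exchanger to pump ratio differed from NTG by -0.04 in TM175 and 0.15 in TM180 on the log2 scale, and neither passed (exact permutation p = 0.9 and 0.629). Its sign was not stable, since without the NTG pool the differences were 0.29 and 0.48 and without NTG array 2 they were -0.24 and -0.04. The sign also turned without TM175 array 1 in TM175 (0.11) and without the TM180 pool in TM180 (-0.02).

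**Figure D4:**
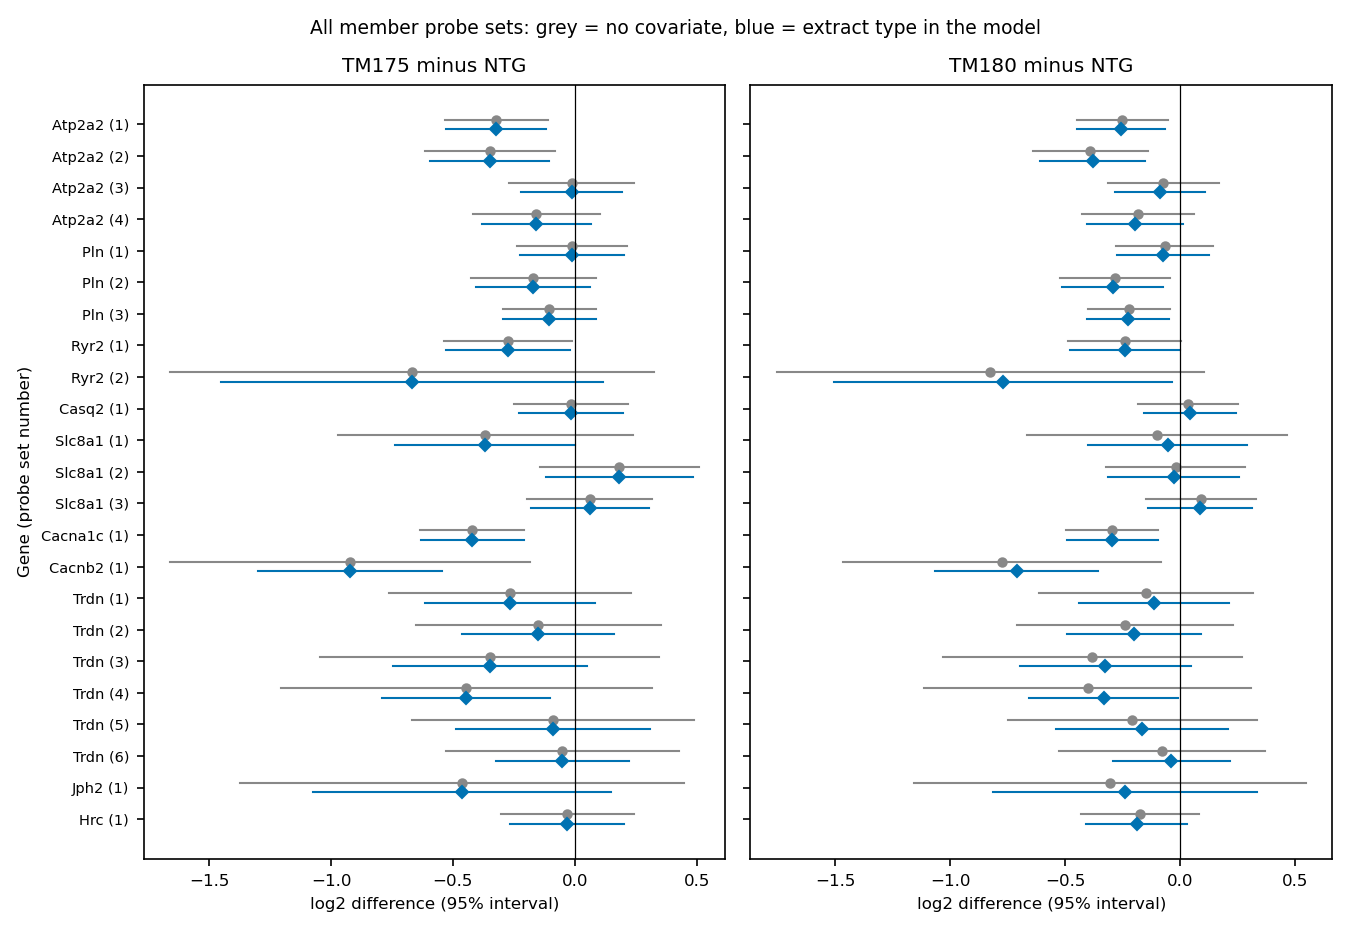
Log2 difference from NTG with its 95% interval for all 23 probe sets in TM175 (left) and TM180 (right), numbered within each gene; grey circles are without a covariate and blue diamonds with extract type in the model. Most points lie left of 0 (21 of 23 in each line without a covariate), and the Cacnb2 and Trdn intervals narrow with extract type in the model.

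Between the lines the 10 genes were not told apart. TM180 and TM175 differed with limma adjusted p-values from 0.505 to 0.962 over the 23 probe sets, and 1 of them, Pln 1450952_at, had every TM180 array below every TM175 array, where 7.37% of all probe sets did. The ratio of TM180 to TM175 was 1.05 for Atp2a2 (95% interval 0.917 to 1.21), 1.09 for Cacna1c (0.949 to 1.25), 1.11 for Cacnb2 (0.685 to 1.79) and 1.02 for Ryr2 (0.862 to 1.21). These intervals show what differences between the milder and the more severe line the arrays leave possible.

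Other genes of calcium handling gave a wider view. Of a list of 69, 50 had a settled probe set of their own. Without a covariate none passed in any comparison (limma; unadjusted p under 0.05 in 7 for TM175, 4 for TM180, 9 between the lines and 6 for the mean of both lines, where 13.0%, 9.34%, 13.3% and 10.8% of all probe sets did). In TM175, 18 of the 50 lay below NTG and in TM180 27, where 41.7% and 49.1% of all genes did, with median log2 differences of 0.06 and -0.02. With extract type in the model 1 of the 50 passed, Casq1 in TM180. That count is near the share of all probe sets called in this comparison, 2.01%.

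Casq1, the calsequestrin of skeletal muscle, read 913.8, 793.5 and 765.9 in NTG, 820.9, 985.6 and 979.1 in TM175, and 1258, 1991, 1297 and 1349 in TM180. Every TM180 array lay above every other array. Of all 22626 probe sets, 1353 had every TM180 array above every NTG array, and 1407 had every TM180 array above every TM175 array. The ratio to NTG in TM180 was 1.76, with a limma adjusted p of 0.0571 without a covariate and a log2 rise of 0.81 ± 0.15 (SE, adjusted p = 0.0183) with extract type. In the model with the Gapdh ratio it was 0.97 (adjusted p = 0.0465). Of the 10 models that left out 1 array with extract type kept, 7 called it, and the call was lost without NTG array 2 (0.0744), NTG array 3 (0.132) or TM180 array 4 (0.0693). TM180 against TM175 differed by 0.64 in log2 and did not pass (adjusted p = 0.302, and 0.0757 with extract type). Its values cross 1000, where the deposited notation changes, so they depend on the repair described with the processing.

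The summed intensity of the other skeletal muscle markers, over 7 measured genes of 8, was 306.6 to 315.0 in NTG, 317.8 to 332.8 in TM175 and 273.0 to 313.9 in TM180, and the dimmest, Myh1, had a median of 18.9. Casq2 in the same arrays had a TM180 ratio of 1.02.

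**Figure D5:**
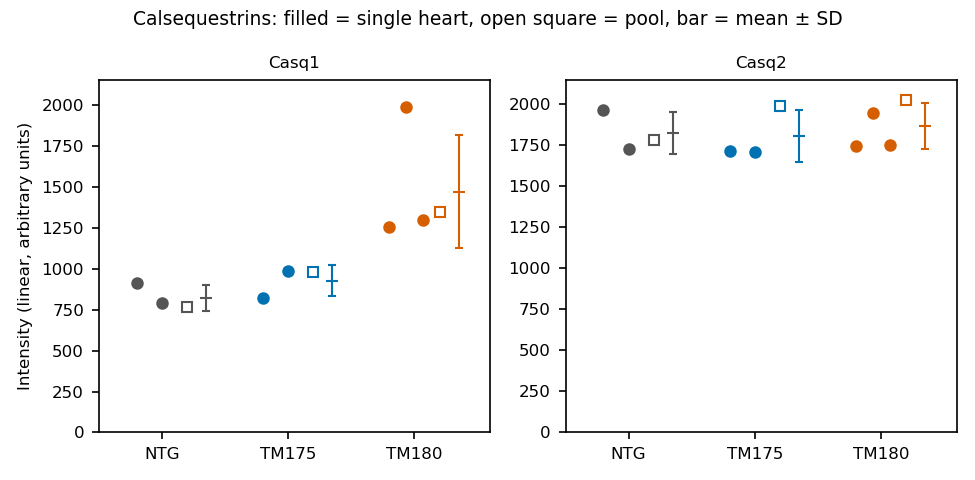
Linear intensity (arbitrary units) of Casq1 and Casq2 on each array by genotype; filled circles are individual extracts, open squares pools of 20 hearts, and bars mean ± SD. The 4 TM180 arrays of Casq1 sit between 1258 and 1991, above all other arrays, and the Casq2 groups overlap.

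Their promoter windows are set side by side because Casq1 held the single call among the 50 other genes with extract type in the model. The difference between Casq1 and Casq2 was not tested. The source, the window and the motifs in capitals are as for Cacnb2.
Casq1 at chr1:172219846-172220145, minus strand: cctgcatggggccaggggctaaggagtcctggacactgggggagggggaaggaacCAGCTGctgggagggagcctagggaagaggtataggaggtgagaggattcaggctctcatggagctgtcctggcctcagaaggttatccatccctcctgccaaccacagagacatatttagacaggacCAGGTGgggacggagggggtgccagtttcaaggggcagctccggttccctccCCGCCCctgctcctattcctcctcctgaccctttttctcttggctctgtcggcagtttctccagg
Casq2 at chr3:102086165-102086464, plus strand: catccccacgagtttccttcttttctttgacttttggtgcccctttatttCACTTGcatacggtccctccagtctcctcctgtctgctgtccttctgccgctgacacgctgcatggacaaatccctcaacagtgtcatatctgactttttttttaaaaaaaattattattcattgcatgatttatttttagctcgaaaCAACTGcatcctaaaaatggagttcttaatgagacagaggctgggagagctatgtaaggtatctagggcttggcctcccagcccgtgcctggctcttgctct
The Casq1 window holds 1 GC box and 2 E boxes, and the Casq2 window 2 E boxes and no GC box.

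Another 3 genes were named for their small p-values. Tmem38a, a potassium channel of the reticulum membrane, read 634.7, 737.5 and 736.4 in NTG, 409.4, 557.3 and 262.4 in TM175, and 607.7, 543.7, 473 and 408.6 in TM180. It lay below NTG with no overlap in either line (8.11% of all probe sets in TM175 and 4.19% in TM180). Its ratio was 0.558 in TM175 (limma adjusted p = 0.210, and 0.0517 with extract type) and 0.717 in TM180 (0.546 and 0.178). With the Gapdh ratio and extract type in the model its log2 differences went from -0.84 and -0.48 to -0.47 and -0.19 (adjusted p = 0.348 and 0.766), and without the TM175 pool the first was -0.55 (0.199 without a covariate). Cav3, the muscle caveolin, had ratios of 0.711 and 0.905, and Ppp1r2, an inhibitor of a protein phosphatase, 0.821 and 1.12, and neither passed in any comparison.

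The genes whose log2 intensity followed that of a member most closely over the 10 arrays were looked up among 7324 candidates. For Atp2a2 they were Echs1 (Pearson r = 0.953), Ndufa9 (0.938) and Lclat1 (0.923). Ryr2 was followed by Aldh6a1 (0.930), Ndufaf1 (0.899) and Ndufb9 (0.897), and Cacnb2 by Txlnb (0.981), Pex3 (0.946) and Immp1l (0.944). These values describe the 10 arrays, which share genotype and extract type, and are the largest of many.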

How the data were processed

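Total RNA of mouse ventricles was labelled with a one-cycle kit that reads the 3′ part of transcripts and hybridised to 10 arrays, per the labels' protocols. The deposited values are linear probe set intensities, made by the authors with RMA, per the submitters' processing notes. The version of RMA is not given in the sources used here. In the table, intensities of 1000 or more carry a point before the last 3 digits, so that 1.181 stands for 1181. This was undone for 7844 values in 1057 probe sets, from the written digits and the other arrays. For 228 probe sets the level was not settled and the written values were kept. Tested on simulated data, the reading was wrong in 0 of 224620 cases.

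Of 22690 probe sets 64 controls were left out. Log2 intensities of the remaining 22626 went into 1 linear model of limma 3.58.1 (R 4.3.3, with eBayes), holding all 10 arrays and a mean for each genotype. Tests were two-sided with Benjamini-Hochberg adjustment over all probe sets, called under 0.05. A fold or ratio is between geometric means, with its 95% interval, while a mean ± SD is of linear intensity. Ratios within arrays were compared by exact permutation. Other settings set down at the start were extract type as a covariate, the replicate block, array weights, other normalizations, probe set choices and the arrays left out. The Gapdh covariate, other probe sets in the pump to inhibitor ratio, and leaving out arrays other than TM175 array 1 with extract type kept, were added after seeing the data. Tested on simulated data, limma without a covariate called 19.4% of probe sets changed by 0.5 in log2 for TM175 and 20.9% for TM180, and 77.6% of those changed by 1 in each. The number of arrays limits the precision.

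The members, the calcium handling list and the markers were chosen with earlier results of these data known. All 10 genes were named. From the list, genes called with or without extract type were named, and in comparisons with no call the 2 of smallest p. TM180 against NTG had the Casq1 call, so no other gene was taken from it. Calu, for one, did not pass there, at a ratio of 1.38 (limma adjusted p = 0.274, and 0.0852 with extract type). Promoter windows came from RefSeq (GRCm38.p6). Their motif counts are a description with no test.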

Additional observations from a re-analysis of the deposited data

Results flagged for a closer look

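The 23 probe sets and 4 other genes (Casq1, Tmem38a, Cav3 and Ppp1r2) were looked at for single arrays that stood apart. Of these, 3 had 1 TM180 array far from the other 3, a pattern that chance gives in about 1 of 20 groups. Pln 1423359_at read 4577 in TM180 array 1 and 4027 to 4086 in the others. Slc8a1 1425817_a_at read 90.47 in TM180 array 4, the pool, and 53.95 to 59.65 in the others. Casq1 read 1991 in TM180 array 2 and 1258 to 1349 in the others, and without that array its log2 difference from NTG was 0.66 (limma adjusted p = 0.0210 with extract type).

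Ppp1r2 lay on opposite sides of NTG in the lines, at log2 differences of -0.28 in TM175 and 0.16 in TM180. TM180 minus TM175 was 0.44 (limma adjusted p = 0.302, and 0.0757 with extract type). Every TM180 array lay above every TM175 array, as in 1407 of all 22626 probe sets. The difference between the lines did not pass in these models.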

How the results depend on the processing

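Without a covariate 0 of the 23 probe sets passed in any comparison, and the count stayed 0 under renewed quantile normalization, median centring, individual extracts alone, a robust fit with an intensity trend, only the 2 groups compared, only probe sets above the median, the values as written, either reading of unsettled levels, and each array left out. The setting with only probe sets above the median left out Cacnb2 and all Slc8a1 probe sets, among others, so these were not tested there. Extract type as a covariate gave 1, 1 and 2 calls for TM175, TM180 and the mean of both lines. With 1 array left out, that model gave 0 to 1 in each. Array weights gave 6, 1 and 4 calls, where they called 23.7%, 3.33% and 11.5% of all probe sets; the 6 were Atp2a2 1427250_at, Cacna1c, Cacnb2 and 3 of Trdn. The numbers in the labels did not pair the arrays (like extracts of 1 number correlated at -0.11 to 0.71, median 0.31 over 7 pairs, and of different numbers at 0.02 to 0.81, median 0.28 over 12; the 2 same-number pairs of unlike extract were at -0.51 and -0.53), and with the replicate block, with or without extract type, 0 passed. Of the 92 log2 differences (23 probe sets in 4 comparisons), none of them called in both models, 2 changed sign with extract type, 13 with quantile normalization, 13 with array weights, 13 with the Gapdh ratio and 20 in pools alone. Among the 50 other genes the 0 calls became 8, 1, 6 and 2 with array weights (TM175, TM180, between the lines, mean of both lines). For TM180 they became 1 with extract type, with the Gapdh ratio, with the robust fit and with probe sets above the median. Values as written gave 1 for TM180, between the lines and for the mean of both lines. With extract type and 1 array left out they ran from 0 to 2, 0 to 2, 0 to 3 and 0 to 1. Leaving out arrays moved the pump to inhibitor log2 difference from -0.38 to -0.25 in TM175, from -0.22 to -0.10 in TM180 and from -0.27 to -0.20 over both lines; with Pln 1423359_at it was 0.032 in TM180. The causes were not tested. With 3 or 4 arrays a group, differences near 0.5 in log2 were called in few simulated probe sets.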
